A study of Mus musculus with 27 samples.

Results

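Gzmk-positive CD8 T cells are the CD8 T cells of these tumours that carried RNA for granzyme K, were not dividing and had no RNA of the inhibitory receptor gene Havcr2. They were chosen by raw UMI counts (a UMI is a tag that marks 1 captured RNA molecule) in single cell RNA-seq of CD45-positive immune cells. A cell needed at least 1000 UMIs, at least 500 genes and at most 10% mitochondrial UMIs. It further needed a sum of at least 2 UMIs over Cd3d, Cd3e and Cd3g and of at least 2 over Cd8a and Cd8b1, a sum of at most 1 over Mki67 and Top2a, at least 1 UMI of Gzmk, and 0 of Cd4, Foxp3, Csf1r, Adgre1 and Havcr2. This left 273 of 20299 kept cells, 175 of 10086 in KO and 98 of 10213 in WT. The genes of the rule therefore describe the choice and are no finding, and since every gene was read from these same cells, all values below are given as a description with no test.

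The cells came from MC38 tumours, grown from a mouse colon adenocarcinoma line. KO mice carried a floxed Ogt gene and the Lyz2-cre transgene, and WT mice carried the floxed Ogt gene without cre. Ogt encodes O-GlcNAc transferase, which attaches the sugar O-GlcNAc to nuclear and cytosolic proteins. Lyz2-cre is active in macrophages, monocytes and neutrophils and sits in the Lyz2 locus, so the T cells described here were not the cells that the deletion aimed at, and KO mice differ from WT mice by cre and by Lyz2 as well as by Ogt. The labels name no strain, age or sex and do not say how many animals gave cells. They list 2 samples per genotype, but each genotype had 1 matrix, with no map from cells to samples, so no difference between KO and WT single cells could be tested. Bulk RNA-seq of tumour-associated macrophages, with 3 KO and 3 WT libraries, was the only replicated measure set beside these cells.

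CD8 T cells kill infected and malignant cells by releasing perforin and granzymes and by engaging death receptors through Fas ligand. Granzyme K is a serine protease of the granzyme family, and in tumours and chronic infection its RNA marks CD8 T cells with effector memory traits, many of which also make chemokines such as CCL5. CD8 T cells exposed to antigen for a long time gain inhibitory receptors such as PD-1 (Pdcd1) and TIM-3 (Havcr2), while cells that keep Tcf7 and Il7r retain memory traits and recirculate through lymphoid tissue.

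The marker genes were present, as the name asks. Cd8b1, a chain of the CD8 coreceptor, was found in 162 of 175 KO cells and 93 of 98 WT cells, Themis, a signalling protein of the T cell receptor, in 148 and 88, Ccl5 in 173 and 89, and Fasl in 107 of 175 and 41 of 98. Themis and Fasl were found in 2.6% and 1.3% of KO macrophages and in 1.9% and 1.5% of WT macrophages, whereas Ccl5 was found in 31.6% of KO and 25.9% of WT macrophages, at 308 and 149 CPM (UMIs of a gene per 1000000 UMIs of the same cells). The Gzmk-positive cells had a median of 5709 UMIs and 2206 genes per cell in KO and of 5912 UMIs and 2286 genes in WT, and their summed depth was 1074828 UMIs in KO and 628823 in WT. The matrices shared 25 barcodes among kept cells and 0 among these cells. Intervals below are 95% exact intervals (Clopper-Pearson for shares, Poisson for levels) and cover counting error only, not the spread between animals.

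Markers of other cells were low. The defining genes of CD4 T cells, regulatory T cells and macrophages were at 0 by the rule. The NK cell list (7 genes) summed to 208 CPM in KO and 301 CPM in WT, the macrophage list (12 genes) to 176 and 305 CPM, the dendritic cell list (9 genes) to 184 and 423 CPM, the neutrophil list (7 genes) to 131 and 44.5 CPM, and the B cell list (7 genes) to 83.7 and 82.7 CPM, with Cd79b and Jchain among its genes at 0 in both. The genes at 0 were 3 of 12 on the macrophage list in each genotype (Csf1r, Adgre1 and Lyz2 in KO; Csf1r, Adgre1 and Arg1 in WT). The T cell list (8 genes) stood at 6434 CPM in KO and 5297 CPM in WT, the CD8 list at 980 and 1003 CPM, the regulatory T cell list at 713 and 808 CPM with Foxp3 at 0, and the CD4 list at 0.930 and 0 CPM. The monocyte list stood at 2546 CPM in KO and 2711 CPM in WT, but it holds Ly6c2 and Ccr2, which T cells also express. The erythroid, mast cell and platelet list summed to 8.4 and 3.2 CPM, the fibroblast and endothelial list to 34.4 and 31.8 CPM, and the tumour epithelial list to 21.4 and 19.1 CPM, with Krt8, Krt18 and Krt19 at 0 in both. The plasmacytoid list stood at 415 and 541 CPM with Siglech and Cox6a2 at 0, and the gamma-delta list at 13.0 and 57.3 CPM. The part of such RNA in the results was not tested.

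Lyz2, the lysozyme gene that carries cre, is a myeloid gene that T cells are not known to use. In KO 0 UMIs of Lyz2 were counted over all 175 cells, against 45 UMIs (71.6 CPM) in 21 of 98 WT cells, at least 25.6-fold lower in KO when 3 UMIs over the group are taken as the floor. The same gene stood at 15.3 CPM in KO macrophages and 4565 CPM in WT macrophages, and at 8.0 and 1253 CPM in barcodes with 10 to 100 UMIs, which hold mostly free RNA. Ogt itself was at 167 CPM in the KO T cells (179 UMIs) and 180 CPM in the WT T cells (113 UMIs), a log2 ratio KO over WT of -0.11 with an interval of the ratio from 0.728 to 1.18. Egr2, the transcription factor that the study profiled on chromatin, had 12 UMIs in KO and 6 in WT, too few to compare.

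Gzmk-positive CD8 T cells took a larger share of the immune cells in KO than in WT tumours. They made up 1.74% of KO cells (1.49 to 2.01) and 0.96% of WT cells (0.780 to 1.17), a ratio of 1.81 (1.40 to 2.34). Of T cells they were 4.33% in KO and 2.82% in WT (ratio 1.53, 1.19 to 1.99), and of CD8 T cells 13.4% of 1306 in KO and 9.68% of 1012 in WT (ratio 1.38, 1.07 to 1.79). The share therefore exceeded that in WT inside the CD8 compartment too, by less than it did among all cells, since CD8 T cells as a whole made up 12.9% of KO cells and 9.91% of WT cells.

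How the share read depended on which CD8 T cells were counted beside it. Of all non-cycling CD8 T cells, Gzmk-positive Havcr2-negative cells were 17.8% of 984 in KO and 16.5% of 594 in WT, a ratio of 1.08 whose interval (0.837 to 1.40) includes 1. Of the non-cycling CD8 T cells without Havcr2 they were 35.9% of 488 in KO (31.6 to 40.3) and 24.3% of 404 in WT (20.2 to 28.7), a ratio of 1.48 (1.15 to 1.91). Non-cycling cells with RNA of both Pdcd1 and Havcr2 made up 3.43% of KO and 1.20% of WT cells, and cycling CD8 T cells 3.19% and 4.09%. Gzmk-negative Havcr2-negative cells numbered 313 of 10086 in KO and 306 of 10213 in WT, with overlapping intervals (2.77% to 3.46% and 2.67% to 3.34%), while the intervals of the Gzmk-positive cells did not overlap.

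**Figure D1:**
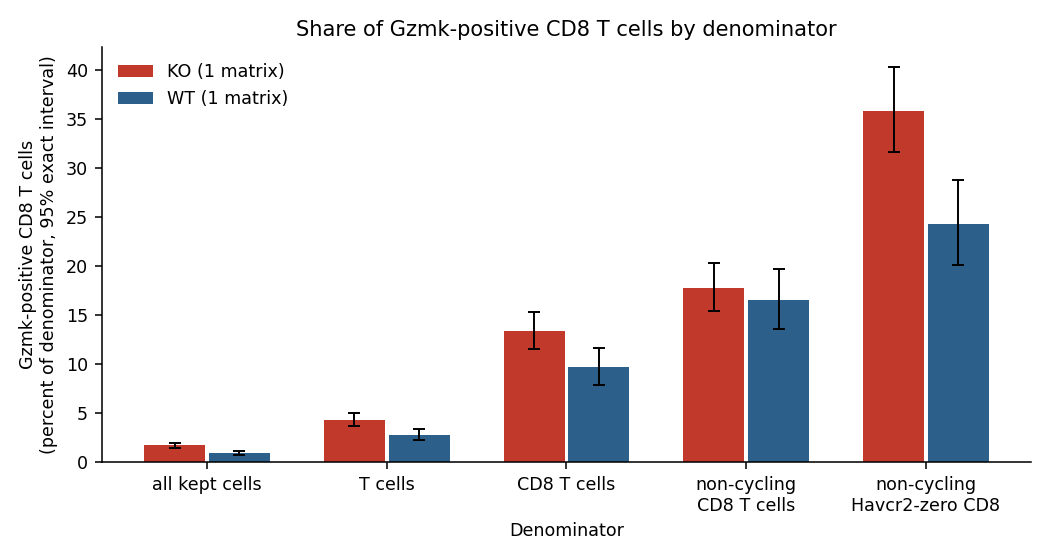
Share of Gzmk-positive CD8 T cells in percent of 5 denominators, from all kept cells to non-cycling CD8 T cells without Havcr2 RNA; bars are the KO (left) and WT (right) matrix and error bars are 95% exact intervals of counting error. The KO share is 1.74% against 0.96% of all kept cells, and the intervals overlap for non-cycling CD8 T cells (17.8% against 16.5%).

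Many of these cells passed the Gzmk threshold narrowly. Exactly 1 UMI of Gzmk was seen in 85 of 175 KO cells (48.6%) and 61 of 98 WT cells (62.2%), 2 UMIs in 44 and 25 cells, and 3 or more in 46 KO cells (26.3%, 19.9 to 33.5) and 12 WT cells (12.2%, 6.49 to 20.4). The highest count was 13 UMIs in KO and 5 in WT. Summed over the cells, Gzmk stood at 354 CPM in KO and 240 CPM in WT. The rule itself asked for Gzmk, so these levels describe the choice. The KO cells were slightly shallower, and 1 UMI counts for more CPM in a shallower cell. With at least 2 UMIs of Gzmk required, 0.892% of KO and 0.362% of WT cells remained, a ratio of 2.46 (1.66 to 3.72).

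Gzmk RNA was not confined to the cells chosen. Non-cycling Havcr2-negative CD8 T cells held 22.4% of all Gzmk UMIs in KO and 12.6% in WT, and cycling CD8 T cells held 30.8% and 41.0%. With every cell thinned to 2000 UMIs, so that depth could not set the order, Gzmk was seen in 17.3% of Havcr2-negative CD8 T cells in KO (14.1 to 21.0) and 12.4% in WT (9.35 to 16.03). It was seen in 12.4% and 14.6% of Pdcd1 and Havcr2 positive cells, in 13.4% and 14.7% of cycling CD8 T cells, and in 4.08% and 2.33% of CD4 T cells. Within each matrix the counting intervals of the 3 CD8 T cell groups overlapped, and for Havcr2-negative cells so did those of KO and WT. Before thinning, the shares were 35.9% and 24.3% of Havcr2-negative CD8 T cells (median depths 5912 and 5334 UMIs) and 53.1% and 44.7% of the much deeper cycling cells (14927 and 15051 UMIs).

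Cells that should lack Gzmk set the background. At 2000 UMIs it was seen in 0 of 1331 KO macrophages, which allows up to 0.277% by the exact interval, and in 0.221% of 1357 WT macrophages, and unthinned in 0.147% and 0.728% of macrophages at median depths of 8472 and 8380 UMIs. Regulatory T cells gave 0.287% and 0.365% and NK cells 0.727% and 0.370% at 2000 UMIs. Of B cells, 0 of 27 in KO and 0 of 20 in WT held Gzmk, which allows up to 12.8% and 16.8%, so they were too few to set a level. All CD8 T cell shares were above the levels of macrophages, regulatory T cells and NK cells.

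Between genotypes, 2981 genes had at least 100 UMIs over the Gzmk-positive cells of both matrices and at least 20 CPM in either. Of these, 96 (3.22%) were at least 1.5-fold higher in KO and 129 (4.33%) at least 1.5-fold lower, 225 in all (7.55%), on log2 ratios of KO over WT with 5 CPM added. The median ratio over all genes was -0.03. The counts of each gene list below are to be read beside the 3.22% and 4.33% over all genes. With 1 matrix per genotype these are differences between 2 pools of cells, and each gene's interval counts UMIs only.

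**Figure D2:**
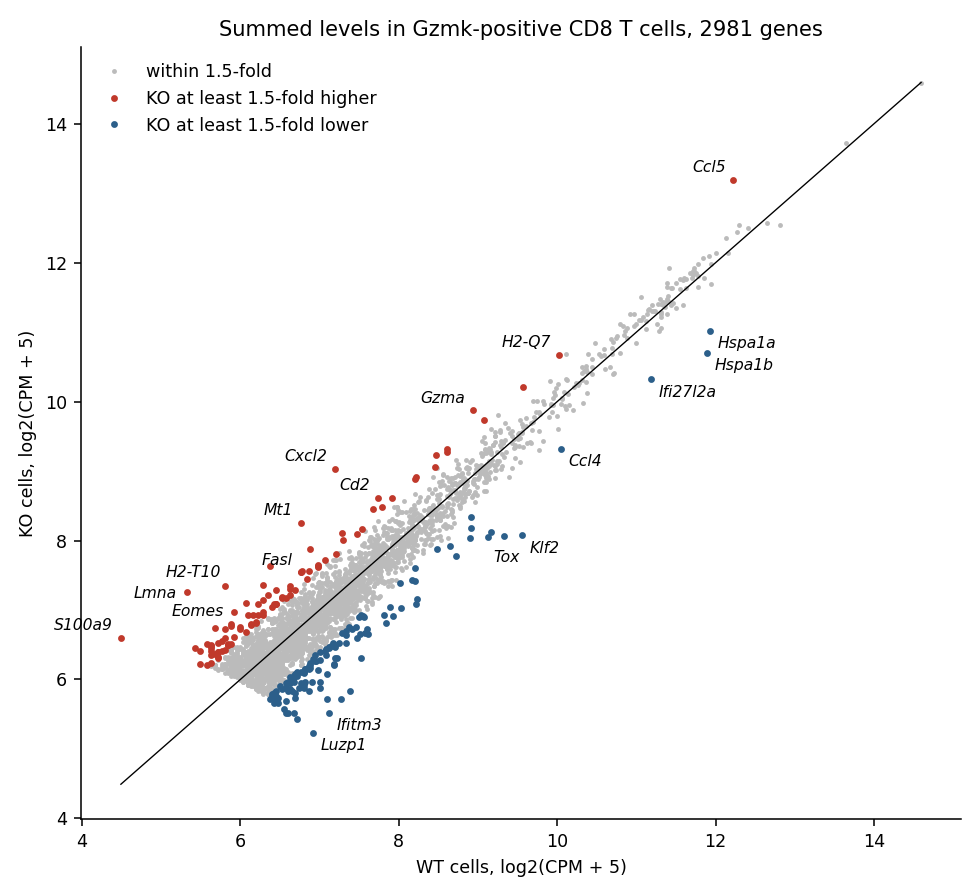
Summed level of each of 2981 genes in Gzmk-positive CD8 T cells, as log2(CPM + 5), KO on the vertical and WT on the horizontal axis; red points are at least 1.5-fold higher in KO (96 genes), blue points at least 1.5-fold lower (129), the line marks equal levels. Ccl5 is the most abundant gene past 1.5-fold in KO, and Hspa1a, Hspa1b and Ifi27l2a are the most abundant genes at least 1.5-fold lower.

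Chemokine RNA differed by gene. Ccl5, a chemokine that draws T cells and monocytes, stood at 9370 CPM in KO (9188 to 9555) and 4780 CPM in WT (4611 to 4954), a log2 ratio of 0.97 (interval of the ratio 1.88 to 2.04). Single cells ranged widely: the middle cell had 7217 CPM in KO, with quartiles of 3390 and 13840, and 3352 CPM in WT, with quartiles of 880 and 9452, so that the genotypes overlapped. Ccl5 was also higher in KO among Gzmk-negative cells (4496 against 3567 CPM), Pdcd1 and Havcr2 positive cells (3332 against 1745 CPM) and cycling CD8 T cells (1595 against 1031 CPM), and in barcodes of 10 to 100 UMIs (1485 against 1061 CPM).

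Of the 9 genes of effector cytokines and chemokines that passed the filter, out of 16 listed, Ccl5 was the 1 that was at least 1.5-fold higher and 2 were at least 1.5-fold lower (median log2 ratio 0.19). Ccl4, another inflammatory chemokine, stood at 635 CPM in KO and 1053 CPM in WT (-0.73), but 5 WT cells held 72% of the WT UMIs, and without the Havcr2 condition the ratio was 0.14. Xcl1, which attracts cross-presenting dendritic cells, stood at 66.1 and 111 CPM (-0.71), with 63% and 70% of its UMIs in 5 cells. Ccl3 had 180 and 119 CPM (0.57), within 1.5-fold. Ifng, the cytokine interferon gamma, was found in 45.7% of KO and 52.0% of WT cells, at 263 and 363 CPM (-0.45).

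Killing genes were abundant in both genotypes. Of 11 granzyme and killing genes that passed the filter, of 14 listed, 2 were at least 1.5-fold higher in KO and 0 lower (median 0.17). Fasl, which encodes Fas ligand, stood at 181 CPM in KO and 103 CPM in WT (0.78, ratio 1.32 to 2.36), and was found in 61.1% and 41.8% of cells before thinning and in 27.4% and 15.5% at 2000 UMIs. In Gzmk-negative, Pdcd1 and Havcr2 positive and cycling CD8 T cells its log2 ratios were 0.77, 0.31 and 0.51. Gzmb, granzyme B, was the most abundant of the list at 1649 and 1471 CPM (0.16), and Prf1, perforin, stood at 125 and 189 CPM (-0.58), just inside 1.5-fold, with 51% of the WT UMIs in 5 cells.

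Gzma, granzyme A, was carried by few cells. It stood at 933 CPM in KO and 485 CPM in WT (0.94), while fewer KO cells held any of it, 61 of 175 (34.9%) against 41 of 98 (41.8%); 5 cells held 35% of the KO and 56% of the WT UMIs, and the highest cells had 15710 and 8016 CPM. Its genotype difference depended on the CD8 T cells looked at. In Gzmk-negative cells it was 767 CPM in KO and 169 CPM in WT (2.15), whereas in Pdcd1 and Havcr2 positive cells it was 115 and 383 CPM (-1.69).

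Granzyme combinations overlapped between KO and WT within counting error. At 2000 UMIs per cell, Gzmb without Gzma was seen in 50.9% of KO cells (43.2 to 58.5) and 52.6% of WT cells (42.2 to 62.8), and both together in 24.0% and 19.6%. Neither was seen in 22.3% of KO (16.4 to 29.2) and 19.6% of WT cells (12.2 to 28.9). Among Gzmk-negative cells neither was seen in 124 of 310 in KO (34.5% to 45.7%) and 151 of 306 in WT (43.6% to 55.1%), above the intervals of the Gzmk-positive cells in each matrix. At 2000 UMIs macrophages gave 4.4% in KO and 5.6% in WT for Gzma and 4.4% and 3.9% for Gzmb, the level that free RNA can give.

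**Figure D3:**
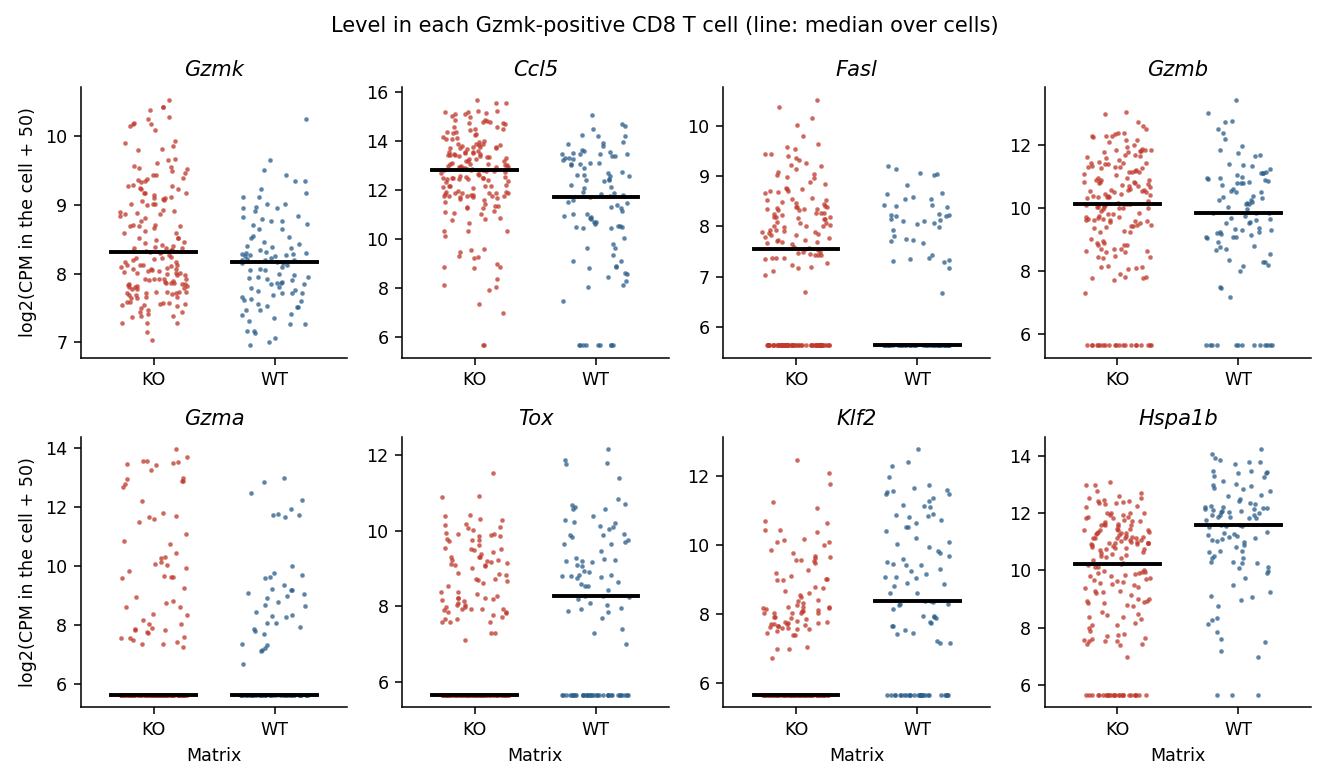
Level of 8 genes in each of 175 KO and 98 WT Gzmk-positive CD8 T cells, as log2(CPM in the cell + 50), KO left of WT in each panel; each point is 1 cell, the black line is the median over cells, and points on the lowest line are cells with 0 UMIs. The genotypes overlap for every gene; Ccl5 has a median of 7217 CPM in KO and 3352 CPM in WT, and Hspa1b of 1136 and 3022 CPM.

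Genes tied to exhaustion were mostly within 1.5-fold, as were all genes (3.22% higher and 4.33% lower in KO). Of 12 inhibitory receptor and exhaustion genes that passed the filter, of 18 listed, 0 were higher and 1 was lower in KO (median -0.18). That gene was Tox, a transcription factor needed for exhausted CD8 T cells, at 261 CPM in KO (280 UMIs) and 552 CPM in WT (347 UMIs), a log2 ratio of -1.07 (ratio 0.402 to 0.554). It was found in 84 of 175 KO and 62 of 98 WT cells, and in 28.6% and 42.3% at 2000 UMIs. In Gzmk-negative, Pdcd1 and Havcr2 positive and cycling CD8 T cells its log2 ratios were -0.35, 0.05 and -0.22.

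The other genes of that list lay within 1.5-fold. Pdcd1 (PD-1) stood at 116 CPM in KO and 154 CPM in WT (-0.39), and was found in 28 of 175 KO cells (10.9% to 22.3%) and 26 of 97 WT cells (18.3% to 36.8%) at 2000 UMIs. Rgs16, a regulator of G protein signalling, had 251 and 366 CPM (-0.53), Nr4a1, a nuclear receptor induced by the T cell receptor, 289 and 399 CPM (-0.46), and Entpd1, the ectonucleotidase CD39, 125 and 132 CPM (-0.08). Bhlhe40, a transcription factor, was the most abundant at 537 and 520 CPM.

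Among effector transcription factors, 1 of 12 that passed the filter (14 listed) was past 1.5-fold, upward (median 0.24), against 3.22% of all genes. Eomes, a T-box factor of memory and NK cells, stood at 106 CPM in KO (114 UMIs) and 54.1 CPM in WT (34 UMIs), a log2 ratio of 0.91 (ratio 1.33 to 2.97). It was found in 17.1% and 8.2% of cells at 2000 UMIs. Tbx21, the related factor T-bet, was level at 184 and 183 CPM, Runx3, which sustains the CD8 lineage, at 746 and 727 CPM, and Stat4, which conveys interleukin 12 signals, had 414 and 545 CPM (-0.39).

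Receptors shared with NK cells leaned upward. Of 5 that passed the filter, of 13 listed, 3 were at least 1.5-fold higher in KO and 1 lower (median 0.68). Klrc1, the inhibitory receptor NKG2A, stood at 352 and 216 CPM (0.69), Klrk1, the activating receptor NKG2D, at 251 and 153 CPM (0.70), and Klre1 at 154 and 93.8 CPM (0.68). Their partner Klrd1, or CD94, was at 472 and 399 CPM (0.24). In the other groups Klrc1 and Klrk1 each gave a log2 ratio of 0.87 in Gzmk-negative cells, 0.61 and 0.44 in Pdcd1 and Havcr2 positive cells, and 0.34 and 0.28 in cycling cells. Klre1 gave 0.37, 0.06 and 0.00 in the same groups. The 1 gene that was lower, Fcer1g, a signalling adaptor of NK and myeloid cells, had 68.9 and 140 CPM (-0.97), with 62.5% of the WT UMIs in 5 cells; macrophages held it at 3883 and 3506 CPM.

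T cell receptor signalling, costimulation and cytokine receptor genes were mostly level. Over all genes, 3.22% were higher in KO and 4.33% lower. Of 18 signalling genes that passed, 1 was higher (median 0.01): Cd2, an adhesion and costimulatory receptor, with 386 CPM in KO and 208 CPM in WT (0.87, ratio 1.52 to 2.27), found in 152 of 175 and 60 of 98 cells. Ptprc (CD45) was at 1225 and 1199 CPM, Themis at 741 and 671 CPM (0.14), and Lcp2, an adaptor, at 142 and 212 CPM (-0.56). Of 9 costimulatory receptors 1 was higher (median 0.20), Tnfrsf9 (4-1BB), with 206 and 129 CPM (0.65). Among cells with 1 UMI of Gzmk, Tnfrsf9 had 224 CPM in KO and 86.4 CPM in WT. With 2 or more UMIs of Gzmk it was level, at 189.7 and 189.6 CPM. Gzmk-negative cells held Tnfrsf9 at 276 CPM in KO and 115 CPM in WT. Of 11 cytokine receptors 1 was higher (median 0.06), Ifnar1, a chain of the type I interferon receptor, with 143 and 93.8 CPM (0.59), and Ifngr1, of the interferon gamma receptor, had 892 and 603 CPM (0.56).

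Homing genes were largely level as well, with 2 of 15 higher and 0 lower (median 0.01). Ccr2, a chemokine receptor for entry into inflamed tissue, stood at 131 CPM in KO (141 UMIs) and 82.7 CPM in WT (52 UMIs), a log2 ratio of 0.64 (ratio 1.15 to 2.22). Rgs10 stood at 70.7 and 44.5 CPM (0.61), and at -0.03 when cells were thinned before the rule was applied. That thinning left 86 KO and 49 WT cells of 2000 UMIs each, and only 399 genes passed the filter there. Ratios in thinned cells, here and below, are given without regard to that filter. Cxcr6, a receptor of tissue-dwelling T cells, had 261 and 194 CPM (0.42), and Rgs1 was the most abundant at 709 and 732 CPM.

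Klf2, a transcription factor that drives recirculation out of tissue, was lower in KO. It stood at 265 CPM in KO (285 UMIs) and 746 CPM in WT (469 UMIs), a log2 ratio of -1.47 (ratio 0.306 to 0.413), and was found in 83 of 175 and 69 of 98 cells. It was the only 1 of 6 memory and recirculation genes passing the filter, of 17 listed, that was past 1.5-fold (median -0.11). Satb1, a chromatin organiser, had 352 and 246 CPM (0.50), Bach2 182 and 186 CPM and the survival gene Bcl2 204 and 264 CPM (-0.37). Klf2 was also lower in Gzmk-negative (-1.65), Pdcd1 and Havcr2 positive (-1.70) and cycling (-0.74) CD8 T cells, in macrophages (671 and 1201 CPM) and in barcodes of 10 to 100 UMIs (689 and 1210 CPM).

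Heat shock and immediate early genes included 5 that were lower in KO and 0 that were higher. Of 11 heat shock genes that passed, 0 were higher and 2 were lower (median -0.31). The nearly identical chaperone genes Hspa1a and Hspa1b stood at 2075 and 1664 CPM in KO, against 3907 and 3806 CPM in WT (-0.91 and -1.19), and their shares of reads cannot be separated with certainty. Dnajb1, a co-chaperone, had 624 and 868 CPM (-0.47). Of 19 immediate early genes 3 were lower and 0 higher (median -0.10): Jun with 273 and 571 CPM (-1.05), Fos with 214 and 418 CPM (-0.95) and Ppp1r15a with 168 and 281 CPM (-0.72). Jund stood at 2445 and 1996 CPM (0.29).

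Genes of both lists are known to respond to tissue dissociation, and Hspa1a, Hspa1b, Jun, Fos and Ppp1r15a were lower in KO in the 3 other CD8 T cell groups, NK cells, macrophages and near-empty barcodes as well. In the barcodes of 10 to 100 UMIs Hspa1a had 2309 CPM in KO and 4127 CPM in WT, Jun 744 and 1043 CPM, and Fos 1330 and 1692 CPM. In macrophages Hspa1a had 2276 and 3679 CPM and Fos 1439 and 2209 CPM. The part of handling in the difference was not tested, and with 1 matrix per genotype handling and genotype cannot be told apart.

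Interferon-induced genes split. Of 28 that passed, of 29 listed, 4 were higher and 2 lower in KO (median -0.09). The 4 were GTPases induced by interferon, Iigp1 with 86.5 CPM in KO and 42.9 CPM in WT (0.93), Gbp4 with 116 and 63.6 CPM (0.82), Igtp with 181 and 103 CPM (0.78) and Gbp2 with 108 and 68.4 CPM (0.62), the last pair named after their values were seen. In Gzmk-negative, Pdcd1 and Havcr2 positive and cycling CD8 T cells Iigp1 gave 0.57, 0.55 and 0.66, and Gbp4 gave -0.18, -0.36 and -0.06. Iigp1 had 238 CPM in KO and 57.9 CPM in WT macrophages and 159 and 58.5 CPM in barcodes of 10 to 100 UMIs, and Gbp4 107 and 58.7 CPM and 123 and 82.4 CPM; the part of such RNA in these ratios was not tested. Ifi27l2a, induced by type I interferon, was lower at 1276 CPM in KO (1209 to 1345) and 2322 CPM in WT (2204 to 2444), a log2 ratio of -0.86. It was found in 134 of 175 and 95 of 98 cells. It was also lower in KO in Gzmk-negative (-0.68), Pdcd1 and Havcr2 positive (-0.88) and cycling (-0.50) CD8 T cells. Macrophages held it at 1393 and 1660 CPM and barcodes of 10 to 100 UMIs at 1393 and 1821 CPM. Mx1, an antiviral GTPase, had 62.3 and 132 CPM (-1.02), which turned to 0.31 with at least 2 UMIs of Gzmk and to 0.60 in thinned cells.

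MHC class I genes were mostly within 1.5-fold. Of 15 presentation genes 1 was higher and 0 lower (median -0.13): H2-Q7, a class Ib gene, with 1624 CPM in KO and 1034 CPM in WT (0.65). H2-K1, the most abundant, stood at 3505 and 3336 CPM, H2-T23 (Qa-1, the ligand of NKG2A) at 259 and 388 CPM (-0.58) and H2-T22 at 168 and 245 CPM (-0.53). H2-T23 was lower in KO in the same other groups too (-0.52, -0.33 and -0.49), and in those barcodes (165 and 244 CPM). H2-T10, from the same class Ib region but outside the list, stood at 157 and 50.9 CPM (1.54, ratio 2.11 to 4.66), found in 97 of 175 and 26 of 98 cells. It gave 1.51, 1.84 and 1.69 in Gzmk-negative, Pdcd1 and Havcr2 positive and cycling CD8 T cells, and macrophages had 37.3 and 9.41 CPM. H2-T10, H2-T22 and the H2-Q genes are close copies, so how reads were assigned among them is uncertain.

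The remaining lists held few or no differences past 1.5-fold. Of 9 cell cycle genes that passed, of 21 listed, 3 were lower (median -0.27): Tubb5 with 117 CPM in KO and 219 CPM in WT (-0.88), Stmn1 with 95.8 and 178 CPM (-0.86) and Mcm6 with 103 and 172 CPM (-0.71), of which Mcm6 turned to 0.55 in thinned cells; the rule capped Mki67 and Top2a in these cells. Of 17 glycolysis and hypoxia genes 1 was lower (median -0.07), Ddit4, an inhibitor of mTORC1, with 40.9 and 97.0 CPM (-1.15), while Gapdh stood at 1419 and 1312 CPM. Counts were 0 in either direction for 21 oxidative phosphorylation genes (median -0.09), 13 survival genes (median -0.19), 6 genes of the OGT, hexosamine and EGR list (median -0.10) and 79 ribosomal protein genes (median 0.09).

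Of the 10 largest ratios upward, 2 rested mainly on 5 cells. S100a9, a neutrophil calcium-binding protein, headed them with 92.1 CPM in KO and 17.5 CPM in WT (2.11), but 5 of 175 KO cells held 92% of its UMIs, and Cxcl2, a neutrophil attractant with 520 and 142 CPM (1.84), had 89% in 5 cells and turned to -0.43 with at least 2 UMIs of Gzmk and to -0.40 in thinned cells. Lmna, which encodes nuclear lamin A, was spread wider, with 148 and 34.99 CPM (1.94, ratio 2.70 to 6.94) in 69 of 175 and 16 of 98 cells. Mt1, a metal-binding metallothionein, had 301 and 103 CPM (ratio 2.22 to 3.86) in 85 and 24 cells, and Rgcc, a cell cycle regulator, 193 and 77.9 CPM (1.25) in 96 and 28 cells. Both were also higher in the 3 other CD8 T cell groups, at 1.42, 1.11 and 1.20 for Mt1 and 0.77, 1.24 and 0.95 for Rgcc.

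The rest of the upward genes had smaller ratios. Zbtb1, a lymphoid transcription factor, had 132 and 62.0 CPM (1.03) and Cplane1, a ciliary protein, 82.8 and 38.2 CPM (1.02). Tubb4b, a tubulin, had 159 and 73.2 CPM (1.07) and Kcnn4, a calcium-activated potassium channel of activated T cells, 121 and 55.7 CPM (1.05). In thinned cells these turned to -0.37 and -0.31, on few UMIs.

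Of the 10 largest ratios downward, Klf2 and Hspa1b are given above. Luzp1, a cytoskeletal protein, had 32.6 CPM in KO and 116 CPM in WT (-1.69, but 0.15 in thinned cells), and Kcnq5, a potassium channel subunit, 52.1 and 162 CPM (-1.55). Ext1, an enzyme of heparan sulfate synthesis, had 47.4 and 132 CPM (-1.39, but 0.06 with at least 2 UMIs of Gzmk). The DNA replication genes Dut and Mcm4 had 130 and 293 CPM (-1.14) and 38.1 and 100.2 CPM (-1.29), and Mcm4 turned to 0.59 in thinned cells. Ifitm3, an antiviral membrane protein, had 40.9 and 134 CPM (-1.59), with 68% of WT UMIs in 5 cells, and Cd74, the MHC class II invariant chain, 74.4 and 180 CPM (-1.22), with 59% in 5 cells. Macrophages held Ifitm3 at 2138 and 2413 CPM and Cd74 at 7032 and 6798 CPM, and the summed macrophage list in these T cells was 176 CPM in KO and 305 CPM in WT.

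Across the 20 largest ratios, 17 had the same sign in Gzmk-negative cells (all but Cd74, Ifitm3 and S100a9), and 18 in Pdcd1 and Havcr2 positive cells (all but Cxcl2 and Ext1) and in cycling cells (all but Ext1 and Ifitm3). The groups come from the same 2 matrices, so this repeats no measurement. The share of equal signs over all genes was not counted, so these counts say nothing particular about the genes named.

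Within each matrix, Gzmk-positive cells could be set beside cells that met every other condition but had no Gzmk, 313 in KO and 306 in WT. The contrast describes what travels with the choice and is not a test. Of 3840 genes that passed the filter there, 32 (0.833%) were at least 1.5-fold higher in Gzmk-positive cells in both matrices and 42 (1.09%) at least 1.5-fold lower. Genes of memory and recirculation made up 9 of the 42: of 12 that passed the filter, 9 were lower and 0 higher (median of the mean log2 ratio -0.99, against 0.02 over all genes). Among these were Tcf7, Il7r, Ccr7, S1pr1, Klf3, Bach2, Satb1 and Foxp1.

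Tcf7, the transcription factor TCF-1 of memory and stem-like T cells, stood at 31.6 CPM in Gzmk-positive and 115 CPM in Gzmk-negative cells of KO (-1.71), and at 57.3 and 180 CPM in WT (-1.57). Ccr7, the chemokine receptor for entry into lymph nodes, had 6.51 and 119 CPM in KO (-3.43) and 25.4 and 129 CPM in WT (-2.14), on only 7 and 16 UMIs in the Gzmk-positive cells. Il7r, the interleukin 7 receptor of memory cells, had 47.4 and 97.8 CPM in KO and 49.3 and 133 CPM in WT.

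The homing genes past 1.5-fold in both matrices were all higher in Gzmk-positive cells. Ccr2 stood at 131 CPM in Gzmk-positive and 38.7 CPM in Gzmk-negative KO cells (1.64), and at 82.7 and 34.7 CPM in WT (1.14). Cxcr3, the receptor of interferon-induced chemokines, gave 0.72 in KO and 0.60 in WT. Of the 17 homing genes that passed the filter, 3 were at least 1.5-fold higher in both matrices, Ccr2 and Cxcr3 among them, and 0 were lower. Over all genes 32 of 3840 (0.833%) were higher and 42 (1.09%) lower. Plxnc1, a semaphorin receptor, gave 1.23 and 1.38, Entpd1 0.86 and 1.51, and Il10ra, the interleukin 10 receptor, 0.84 and 0.89. Glrx, a redox enzyme, Arsb, a lysosomal sulfatase, and Lrrk1, a kinase, gave 0.74, 0.72 and 0.62 in KO and 1.11, 1.30 and 1.34 in WT.

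Some genes gave unequal ratios in the 2 matrices. Gzma, Gzmb and S100a4, a calcium-binding protein of effector cells, gave 0.28, 0.35 and 0.40 in KO and 1.49, 1.21 and 1.32 in WT, since the KO Gzmk-negative cells already held them at 767, 1294 and 960 CPM, against 169, 634 and 506 CPM in WT. Apol7e gave 0.57, just inside 1.5-fold, in KO and 1.24 in WT. Ccl5 went the other way, with 1.06 in KO and 0.42 in WT, and so did Eomes, with 0.76 and -0.08. Whether these contrasts differ between genotypes could not be tested with 1 matrix each.

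Xcl1 was also lower in Gzmk-positive cells of both matrices (-1.85 in KO and -1.75 in WT), as were Fgf13 (-1.75 and -1.77), Aff3 (-2.39 and -1.37), a transcriptional regulator of lymphocytes, Actn1 (-1.25 and -1.59), an actin cross-linker, and Adk (-1.10 and -1.91), adenosine kinase. S100a9, which the mean of both matrices also put among the 10 lowest, gave 0.44 in KO and -2.91 in WT. Besides the genes given, the lists held 3 more past 1.5-fold in both matrices: Txk (T cell receptor signalling) and Nfkbiz (immediate early) were lower and Aldoa (glycolysis) was higher.

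**Figure D4:**
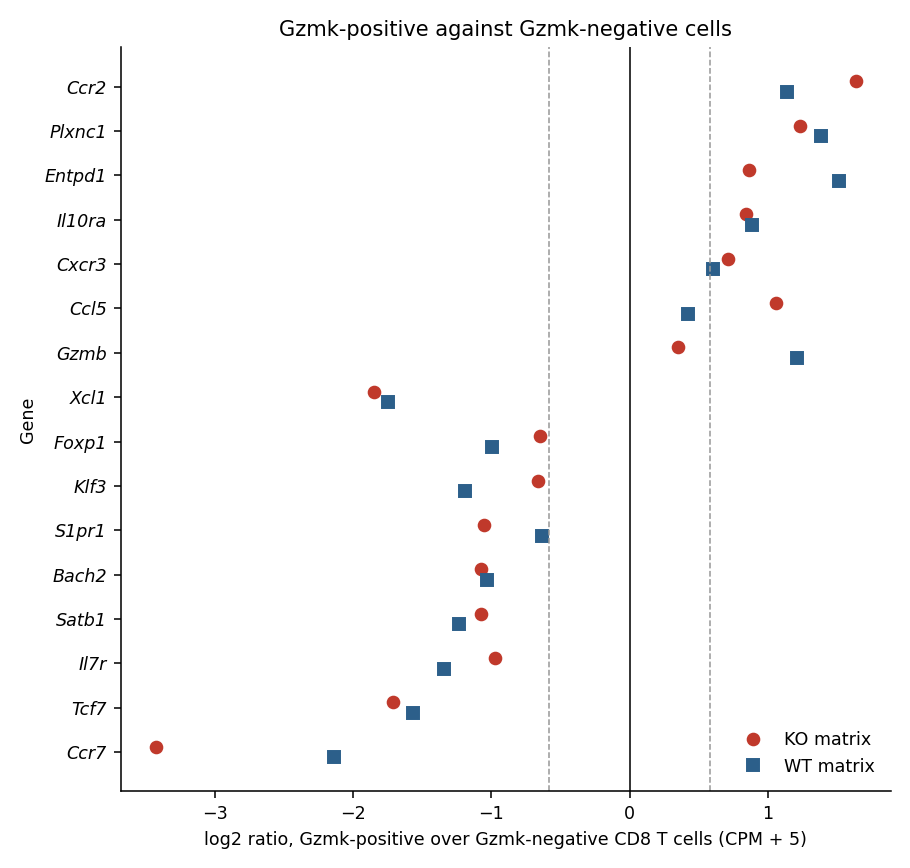
Log2 ratio of Gzmk-positive over Gzmk-negative CD8 T cells (CPM + 5) for 16 genes, as red circles in KO and blue squares in WT; dashed lines mark 1.5-fold. Memory and recirculation genes lie to the left in both matrices (Tcf7 -1.71 and -1.57, Ccr7 -3.43 and -2.14), Ccr2 and Plxnc1 to the right, and Ccl5 and Gzmb differ between the matrices.

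The number of Gzmk UMIs gives the cells just outside the threshold (0 UMIs) and just inside it (1 UMI). In KO, Tcf7 was at 115 CPM in cells with 0 UMIs of Gzmk, 49.97 CPM at 1 UMI, 19.1 CPM at 2 and 12.8 CPM at 3 or more, and in WT at 180, 78.3, 23.9 and 32.9 CPM, the last on 3 UMIs of Tcf7. Gzmb ran the other way, with 1294, 1369, 1563 and 2168 CPM in KO and 634, 1169, 1686 and 2304 CPM in WT. For Ccl5 the matrices parted. In KO it had 4496, 7463, 9594 and 12240 CPM (11850 to 12630), whereas in WT it had 3567, 4730, 5750 and 3204 CPM (2847 to 3593). The KO cells with 3 or more UMIs numbered 46 (median 5982 UMIs), and the WT cells only 12, which were deeper (8096 UMIs).

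Other genes took less even steps. Eomes stood at 60.5, 73.9, 80.1 and 179 CPM at 0, 1, 2 and 3 or more UMIs of Gzmk in KO, and at 57.3, 54.0, 47.8 and 65.8 CPM in WT. Gzma had 767, 414, 1190 and 1550 CPM in KO and 169, 497, 574 and 274 CPM in WT, and Tox 246, 304, 225 and 221 CPM in KO and 314, 556, 514 and 603 CPM in WT. Klf2 was lower at each step in WT, with 1108, 886, 687 and 285 CPM, but not in KO, with 350, 252, 393 and 179 CPM. No test was made of these steps.

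Cells just outside the other thresholds were few. With a Cd8a and Cd8b1 sum of 1, and otherwise as required, there were 11 cells in each matrix, with 6532 CPM of Ccl5 in KO and 9365 CPM in WT, against 10820 and 8126 CPM in the 19 and 12 chosen cells with a sum of 2. With exactly 1 UMI of Havcr2 there were 61 KO and 38 WT cells, with 2416 and 2067 CPM of Gzmb, 153 and 166 CPM of Pdcd1 and 12.2 and 45.3 CPM of Tcf7. With a Mki67 and Top2a sum of 2 there were 8 and 9 cells.

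T cell receptor beta V segments were captured in a minority of cells, 42 of 175 in KO and 22 of 98 in WT. Among cells with 1 segment, Trbv29 was the commonest in KO, in 10 of 42 (23.8%, 12.05 to 39.45), against 3 of 21 in WT (14.3%, 3.05 to 36.3). In Gzmk-negative cells Trbv29 was seen in 36 of 70 in KO (51.4%, 39.2 to 63.6) and 6 of 53 in WT (11.3%). The KO Gzmk-positive cells also used Trbv15 and Trbv19, in 7 cells each, and Trbv13-1, in 6, and the WT cells Trbv13-3, in 5. In all, 11 beta segments were seen in each genotype. The Trbv12 and Trbv13 segments are close copies of each other, and the captured part of the RNA limits which cells show a segment, so these shares describe segment use and not clones.

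Bulk RNA of tumour-associated macrophages, which shares no cell with the choice, carried RNA of genes that mark CD8 T cells, at higher levels in KO. Of 12939 genes tested with edgeR, 4874 (37.7%) were called at an adjusted p below 0.05, and 2432 (18.8%) were called higher. Cd8a had 51.05, 56.5 and 53.3 CPM in the KO libraries and 24.4, 22.2 and 24.3 CPM in the WT libraries, a log2 fold change of 1.18 (SE 0.101, adjusted p = 3.39e-16). Cd8b1 had 16.9, 15.8 and 15.0 CPM in KO and 8.12, 6.52 and 7.03 CPM in WT (1.13, SE 0.174, adjusted p = 1.53e-07). For both genes every KO library lay above every WT library. Which cells gave this RNA was not tested. In bulk RNA, more T cells and more RNA per T cell cannot be told apart.

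Gzmk followed. It had 3.54, 5.26 and 6.23 CPM in the KO libraries (118, 62 and 78 counts) and 2.15, 1.04 and 1.76 CPM in the WT libraries (26, 8 and 12 counts), again without overlap. The log2 fold change was 1.53 (SE 0.355, adjusted p = 0.000325). Themis rose by 1.07 (5.25 ± 0.881 CPM in KO and 2.52 ± 0.634 CPM in WT, adjusted p = 0.00471) and Cd3e by 1.14 (13.0 ± 0.957 and 5.91 ± 1.89 CPM, adjusted p = 2.9e-06, SD, n = 3 each, edgeR). Of the 5 marker genes, 4 rose and Ccl5 did not pass, with 95.2 ± 3.53 CPM in KO and 102 ± 3.84 CPM in WT (-0.11, SE 0.0610, adjusted p = 0.176), although each KO library was below each WT library.

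Fasl rose by 0.71 (5.82 ± 0.939 CPM in KO and 3.44 ± 1.19 CPM in WT, SD, n = 3 each, edgeR adjusted p = 0.0343), but with overlapping libraries, since the KO values were 6.06, 6.62 and 4.79 CPM and the WT values 4.80, 2.87 and 2.63 CPM. The call was lost without WT library 2 (adjusted p = 0.112), WT library 3 (0.133), KO library 1 (0.115) or KO library 2 (0.116), within a range of 0.00848 to 0.133 over all alternatives. Cd4 did not pass, with 27.8 ± 2.14 CPM in KO and 25.3 ± 2.28 CPM in WT (0.13, adjusted p = 0.412). Foxp3 rose by 0.58 (8.004 ± 1.32 and 5.19 ± 1.33 CPM, adjusted p = 0.0436), a call lost without WT library 3 (0.208), KO library 2 (0.0812) or KO library 3 (0.183), with DESeq2 (0.0510), with no filter on low counts (0.0638) and with counts divided by 2 (0.0678), within a range of 0.0333 to 0.208. The B cell gene Cd79a rose by 2.67 (3.44 ± 0.623 and 0.556 ± 0.588 CPM, adjusted p = 1.98e-05), while the NK cell receptor gene Klrb1c fell by 0.91 on the log2 scale (4.23 ± 1.05 and 7.85 ± 1.17 CPM, adjusted p = 0.00226) and Ncr1 was too low to test.

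**Figure D5:**
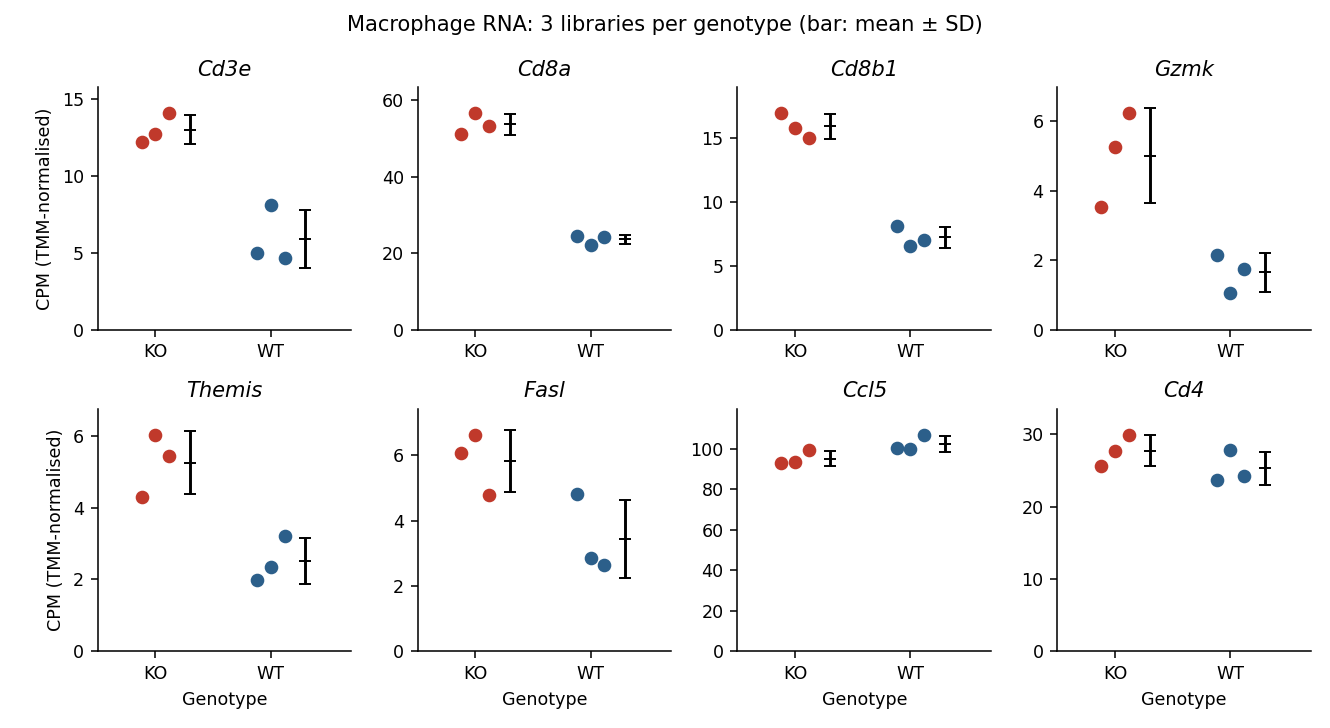
TMM-normalised CPM of 8 genes in macrophage RNA, 3 KO libraries left of 3 WT libraries; points are libraries and the bars beside them are the mean ± SD (n = 3). In Cd3e, Cd8a, Cd8b1, Gzmk and Themis every KO library lies above every WT library, in Ccl5 every KO library lies below, and in Fasl and Cd4 the libraries overlap.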

How the data were processed

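Single cell RNA-seq of CD45-positive cells (1 matrix per genotype) and bulk RNA-seq of macrophages (3 KO, 3 WT) were used. The authors deposited raw UMI counts for all barcodes, made by Cell Ranger 8.0.1 according to the headers; raw counts per gene for the macrophages came from featureCounts 2.0.6 on GENCODE vM10 models, per the file headers, which counted each read of a pair without strand. The submitters' processing notes name mm10; the reference of the single cell matrices is not given in the sources used here. Cells were filtered and chosen as stated, UMIs were summed per matrix as CPM, and a ratio was counted past 1.5-fold with 5 CPM added, among genes with at least 100 UMIs and 20 CPM in 1 matrix. Doublets were kept in the main values; Scrublet (scanpy 1.11.5) was run as an alternative and called 3.70% of KO and 4.94% of WT cells, 3 of the chosen cells in each. Bulk counts (32406170, 11468556 and 12156594 in KO; 12439582, 7953817 and 7032540 in WT) were fitted with edgeR 4.0.16 (TMM normalisation, quasi-likelihood test, filterByExpr, Benjamini-Hochberg) in R 4.3.3, and with DESeq2 1.42.0 as an alternative, so that p-values speak of the spread among these 6 libraries, which may be technical. Python 3.11.15, numpy 2.4.6 and scipy 1.17.1 were used, and scripts were tested on simulated counts.

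Members, 20 gene lists and 16 marker lists were chosen with earlier results of these data known. Named genes are the 10 largest ratios each way per contrast (without mitochondrial, receptor, sex-linked and predicted genes), up to 4 per list with the largest ratio, the most abundant of each list, the markers, the genes of the rule, and Ogt, Egr2 and Lyz2; other genes named, such as Tbx21, Ifng, Klf3, S1pr1, Bach2, Cxcr3, Gbp2, Igtp, Aldoa, Txk, Nfkbiz and V segments, were chosen after their values were seen. Some genes of the rule for names and of the lists are not reported here.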

Additional observations from a re-analysis of the deposited data

Results flagged for a closer look

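Only the named genes and the genes of the gene lists and marker lists were searched here. A difference between KO and WT that ran opposite ways in different CD8 T cells of the same matrices was seen for 4 of them. Each was past 1.5-fold in both places. With 1 matrix per genotype the difference between these effects was not tested. Gzma was higher in KO over the summed Gzmk-positive cells (0.94 on the log2 scale) and lower among Pdcd1 and Havcr2 positive cells (-1.69). Among Gzmk-positive cells 5 cells held 35% of its KO and 56% of its WT UMIs. In the cells with 1 UMI of Gzmk it was lower in KO, at 414 against 497 CPM. S100a9, a neutrophil gene, gave 2.11 in Gzmk-positive and -1.23 in Gzmk-negative cells, with 92% of the UMIs of the Gzmk-positive KO cells in 5 cells. Fcer1g, an adaptor of NK and myeloid cells, gave -0.97 and, in Gzmk-negative cells, 0.60. H2-Aa, an MHC class II gene that was not among the named genes and was found by this comparison, had 42.8 CPM in KO and 89.1 CPM in WT in Gzmk-positive cells, and a log2 ratio of 0.72 in cycling CD8 T cells (56.8 and 32.4 CPM).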

How the results depend on the processing

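The share of Gzmk-positive cells stayed higher in KO under the 6 alternatives that change the cells, with ratios of 1.78 to 2.46 (2.46 with at least 2 UMIs of Gzmk). Counts of genes past 1.5-fold (96 higher, 129 lower) became 451 and 697 at 20 UMIs without a CPM minimum, 1067 and 1641 with no filter, 61 and 82 with a pseudocount of 20 CPM, 110 and 77 with at least 2 UMIs of Gzmk, 18 and 14 of 399 genes when cells were thinned first, and 118 and 116 with ratios centred on their median. The counts against Gzmk-negative cells (32 higher, 42 lower) became 43 and 77 with at least 2 UMIs of Gzmk, 11 and 33 without the Havcr2 condition, 4 and 6 when thinned, 18 and 64 without mitochondrial and ribosomal genes in the total, 15 and 30 with a pseudocount of 20 CPM, 84 and 106 at 20 UMIs and 123 and 187 with no filter. Of the ratios of named genes, 1519 values stayed within the counting interval of the main ratio or barely moved, and 171 left that interval. Another 13 changed sign among genes past 1.5-fold in the main values. Changes of sign in genes within 1.5-fold were not counted apart. The 13 were Cxcl2 (-0.43), Ext1 (0.0633) and Mx1 (0.31) with at least 2 UMIs of Gzmk, and Apol7e (0.0170) and Ccl4 (0.14) without the Havcr2 condition. In thinned cells they were Cxcl2 (-0.40), Kcnn4 (-0.31), Luzp1 (0.15), Mcm4 (0.59), Mcm6 (0.55), Mx1 (0.60), Rgs10 (-0.0317) and Tubb4b (-0.37). Thinned ratios came from 86 KO and 49 WT cells of 2000 UMIs each, without regard to the filter that 399 genes passed. The cause of the sign changes was not tested. In bulk RNA, replicate numbers did not pair libraries (correlations of -0.0048, 0.0019 and 0.0112 between same-numbered libraries); with the replicate block 4691 genes were called, against 4874 (3991 to 4587 with a library left out), Gzmk had an adjusted p of 0.00129 and Foxp3 lost its call (0.0595), as it did with DESeq2 (0.0510), no filter (0.0638) and counts divided by 2 (0.0678). Depth limits single genes below about 100 UMIs.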
